A study of Homo sapiens with 22 samples.

Results

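The genes followed here are 9 factors of nonsense-mediated mRNA decay (NMD): UPF1, UPF2, UPF3A, UPF3B, SMG1, SMG5, SMG6, SMG8 and SMG9. They were chosen by name, each matched 1 entry among the 58278 gene entries of the count tables, and all 9 passed the filter on low counts in both assays. NMD destroys mRNAs on which a ribosome stops at a premature stop codon, and it also limits the amount of many intact mRNAs, including mRNAs of stress response proteins. UPF1 is the RNA helicase at its centre, UPF2 and the paralogues UPF3A and UPF3B connect UPF1 with the exon junction complexes that splicing leaves on the mRNA, and the kinase SMG1, held by its partners SMG8 and SMG9, phosphorylates UPF1. Phosphorylated UPF1 is bound by the endonuclease SMG6, which cuts the mRNA, and by SMG5, which helps to bring in decapping and deadenylation enzymes. The mRNAs of several of these factors are themselves reported substrates of the pathway.

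The cells were LN308, an established glial line from an astrocytoma that lacks p53. They were left untreated (0 h, n = 3), or were given tunicamycin at 2.5 µg/ml, which blocks N-linked glycosylation, for 2 h (n = 3) or 6 h (n = 3), or thapsigargin at 200 nM, which blocks the SERCA calcium pump, for 2 h (n = 1) or 6 h (n = 1). Both agents disturb protein folding in the endoplasmic reticulum (ER). Each assay, RNA-Seq (total RNA) and Ribo-Seq (fragments of mRNA protected by ribosomes), had 11 libraries. The 0 h cells are labelled untreated although the protocol names DMSO, vehicle-treated cells at 2 h and 6 h were not analysed here, and nothing says that replicates were separate cultures. The p-values therefore reflect the spread among these libraries alone, and that spread may be technical.

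RNA-Seq libraries held 101371822 to 166586145 counts and Ribo-Seq libraries 4387173 to 29183769. One RNA-Seq library, untreated replicate 1, stood apart, in which 53489 genes had counts (38264 to 40331 elsewhere), with a scaling factor (trimmed mean of M-values, TMM) of 1.46 against 0.904 to 1.06. Levels below are counts-per-million values on the TMM scale (CPM), and on this scale untreated replicate 1 had the lowest RNA level of all 11 libraries for 7 of the 9 factors. On library size alone it was lowest for 2 of 9 (SMG5 and SMG9), and its SMG1 level was 276 CPM in place of 189.7. The order of libraries is given on the TMM scale throughout, and counts that differ on library size alone are given beside it. On library size alone, 5 of 8 glial markers were at 1 CPM or more in every RNA-Seq library (VIM, NES, S100B, OLIG2 and SLC1A3; summed level of the 8, 1480 to 2895 CPM), GFAP lay at 0.627 to 3.08 CPM, and SOX9 and AQP4 were at most 0.955 and 0.579 CPM. Of 4 blood markers 0 reached that level (summed 0.547 to 2.98 CPM), of 4 epithelial markers KRT8 and KRT18 did (61.7 to 125), and 2 fibroblast markers summed to 3.29 to 18.2 CPM. In bulk samples such as these, fewer cells of a type and less RNA per cell cannot be told apart.

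None of the 9 factors passed the test (edgeR's quasi-likelihood test, Benjamini-Hochberg adjusted p under 0.05) in RNA-Seq after 6 h of tunicamycin, where 1.5% of 41130 genes did. None had an unadjusted p under 0.05 in that comparison, where 17.4% of genes did. DESeq2 called none of them, against 6.04% of genes. The log2 fold changes ran from -0.14 for UPF1 to 0.86 for UPF3B and were above 0 for 8 of 9, with a median of 0.26 against -0.27 over all genes tested. The direction of that median depended on scaling: on library size alone it was -0.0076 against -0.58 over all genes, and UPF2, UPF3A, SMG6 and SMG8 then had values below 0. After 2 h, 0 of 9 passed against 0.00973% of all genes, with a median of 0.19 against -0.17. The medians over all genes depended on untreated replicate 1. Without that library they were -0.01 at 6 h and 0.04 at 2 h, over 31144 genes. The factor medians of 0.26 and 0.19 include that library, so they are not like values to set beside these. With replicates 2 and 3 alone the 2 h median of the factors was below 0. None of the 9 lay wholly above (3.44% of genes) or wholly below (5.88%) the untreated libraries at 2 h.

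UPF1 (chromosome 19, 18831959 to 18868230, on GRCh38.p14 as are all positions here) was the 1 factor with a log2 fold change below 0 in RNA-Seq after 6 h of tunicamycin. Its RNA was at 82.1, 158 and 139 CPM in untreated replicates 1, 2 and 3, at 94.3, 138 and 131 CPM after 2 h of tunicamycin, and at 84.6, 132 and 127 CPM after 6 h. The 6 h log2 fold change was -0.14 ± 0.294 (SE; 95% interval -0.79 to 0.51; adjusted p = 0.803). The groups overlapped, and replicate 1 was the lowest library in each of the 3 groups. UPF2 (chromosome 10, 11920022 to 12043170) showed the opposite arrangement, with 40.2, 46.9 and 36.7 CPM in untreated cells, 60.4, 42.7 and 35.2 CPM at 2 h and 58.9, 40.4 and 40.7 CPM at 6 h. Here replicate 1 was the highest library of both tunicamycin groups, and the 6 h value was 0.18 ± 0.258 (adjusted p = 0.709). On library size alone UPF2 in replicate 1 was at 58.5 CPM untreated, 59.2 CPM at 2 h and 53.7 CPM at 6 h. Replicate 1 was then the highest library of the untreated group too.

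The UPF3 paralogues had the same arrangement of replicates after tunicamycin. UPF3B (chromosome X, 119805311 to 119852963) was at 8.65, 12.1 and 9.18 CPM in untreated cells, 24.4, 13.3 and 9.06 CPM at 2 h and 27.0, 14.4 and 12.8 CPM at 6 h. All 3 libraries of 6 h lay above all untreated ones, by a narrow margin in replicates 2 and 3. The log2 fold change of UPF3B was 0.64 ± 0.392 at 2 h and 0.86 ± 0.393 at 6 h (95% interval -0.01 to 1.73; adjusted p = 0.293), the highest of the 9 factors at both times. UPF3A (chromosome 13, 114281601 to 114305817) lay at 20.7 to 29.6 CPM in untreated cells, 23.4 to 39.0 CPM at 2 h and 27.8 to 36.4 CPM at 6 h, overlapping, with 0.26 ± 0.252 at 6 h. The reference annotation holds 3 UPF3A pseudogenes (UPF3AP1, UPF3AP2 and UPF3AP3), and how reads shared with near copies were counted is not given in the sources used here, so UPF3A values are uncertain.

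**Figure D1:**
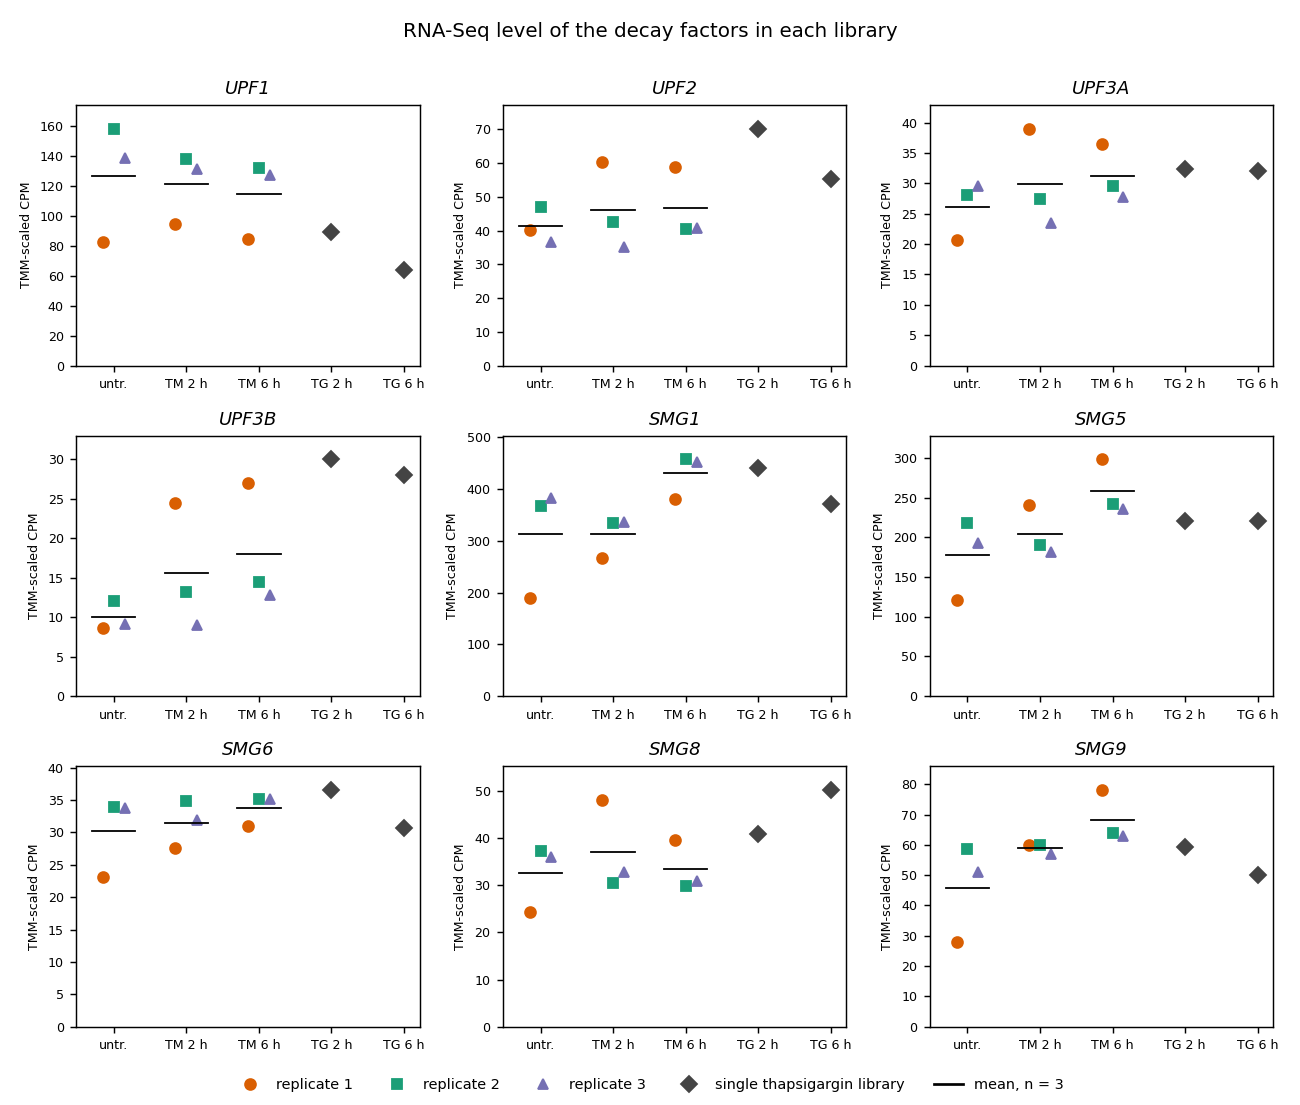
RNA-Seq level of each factor in each library (vertical axis, TMM-scaled CPM from 0; horizontal axis, untreated, tunicamycin (TM) and thapsigargin (TG) groups). Points are libraries, coloured by replicate number, and lines are means of 3; replicate 1 of the tunicamycin groups and both thapsigargin libraries lie together for UPF3B at 24.4 to 30.0 CPM, against 8.65 to 14.4 CPM in the other libraries.

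SMG1 (chromosome 16, 18804860 to 18926408) encodes the kinase of UPF1. Its RNA stood at 189.7, 367 and 382 CPM in untreated replicates 1, 2 and 3, at 267, 335 and 336 CPM after 2 h of tunicamycin and at 381, 457 and 452 CPM after 6 h. The 6 h libraries of replicates 2 and 3 were the highest of all, every 6 h library lay above every 2 h library, and the 6 h and untreated groups overlapped at 1 value. Its log2 fold change was -0.00 ± 0.281 at 2 h, 0.46 ± 0.282 at 6 h (adjusted p = 0.373) and 0.46 ± 0.282 between 6 h and 2 h (adjusted p = 0.735). Between libraries of the same number, the log2 ratio of 6 h to 2 h was 0.51, 0.45 and 0.43.

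SMG9 (chromosome 19, 43727983 to 43754962), a partner of SMG1, was at 27.8, 58.6 and 51.0 CPM in untreated cells, 59.9, 60.1 and 57.1 CPM at 2 h and 78.2, 63.9 and 62.8 CPM at 6 h. All 6 h libraries lay above all others of these 3 groups. The log2 fold change of SMG9 was 0.58 ± 0.27 at 6 h (adjusted p = 0.300) and 0.21 ± 0.269 between 6 h and 2 h (adjusted p = 0.931). SMG8 (chromosome 17, 59210035 to 59215230), the other partner, overlapped throughout, at 24.4 to 37.2 CPM in untreated cells, 30.5 to 48.1 CPM at 2 h and 29.8 to 39.6 CPM at 6 h, with 0.04 ± 0.258 at 6 h. Without untreated replicate 1 the SMG8 value was -0.12.

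SMG5 (chromosome 1, 156249224 to 156291516) was at 121, 218 and 193 CPM in untreated cells, 241, 190.3 and 182 CPM after 2 h and 299, 242 and 236 CPM after 6 h. Every 6 h library lay above every untreated one, and 2 h and 6 h overlapped only through replicate 1 of 2 h. Its log2 fold change was 0.55 ± 0.26 at 6 h (95% interval -0.03 to 1.12; adjusted p = 0.305) and 0.34 ± 0.26 between 6 h and 2 h (adjusted p = 0.844). Between libraries of the same number the log2 ratio of 6 h to 2 h was 0.31, 0.35 and 0.38. SMG6 (chromosome 17, 2059839 to 2303785) varied least of the 9 in RNA-Seq, from 23.2 to 36.6 CPM over all 11 libraries, with 0.16 ± 0.216 at 6 h. SMG5 shares its span with TMEM79, and SMG6 with SRR and HIC1 among 7 overlapping genes, and since no source used here gives the strand setting, the reads of such genes cannot be told apart.

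In total, 3 of 9 factors (UPF3B, SMG5 and SMG9) had all 6 h RNA levels above all untreated ones, where 10.5% of all genes did, and 0 of 9 had all below, where 10.6% did. All 3 overlapped on library size alone, where 0 of 9 lay wholly above, against 5.47% of genes. Between 6 h and 2 h, 2 of 9 (SMG1 and SMG9) did so, against 10.3% of all genes, 0 of 9 lay wholly below against 9.21%, 0 of 9 passed the test against 0.742%, and the median was 0.10 against 0.00. None of the 9 lay wholly above the 2 h libraries on library size alone, against 8.18% of genes. The 305 genes behind 0.742% became 23 without replicate 3 of 2 h. SMG1, SMG5, SMG6, SMG9 and UPF3B had a log2 ratio of 6 h to 2 h above 0 in all 3 number-matched pairs, 5 of 9 where 23.4% of genes did, with SMG6 at 0.01 and SMG9 at 0.09 in replicate 2. UPF1 and SMG8 had one below 0 in all 3, 2 of 9 against 24.6% of genes. On library size alone SMG1 and SMG5 were above 0 in all pairs (2 of 9 against 18.3%) and UPF1 and SMG8 below (2 of 9 against 30.4%). The plot of number-matched ratios shows the TMM values.

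**Figure D2:**
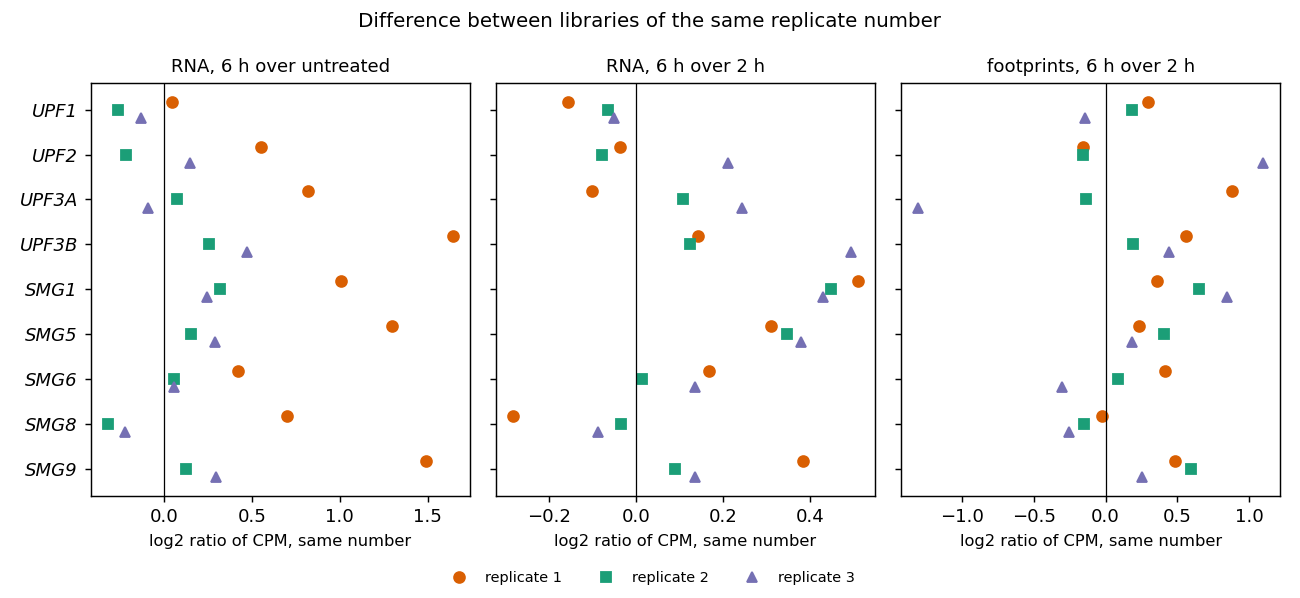
Log2 ratio of CPM between libraries of the same replicate number (horizontal axes, one scale per panel) for each factor (vertical axis): RNA at 6 h over untreated, RNA at 6 h over 2 h, and footprints at 6 h over 2 h of tunicamycin. For SMG1 the RNA ratio of 6 h to 2 h was 0.51, 0.45 and 0.43 in replicates 1, 2 and 3, while the ratio to untreated cells was 1.00 in replicate 1 and 0.32 and 0.24 in replicates 2 and 3.

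Because untreated replicate 1 and the replicate 1 libraries of tunicamycin lay apart from replicates 2 and 3, the calls were compared with those of other fits. With replicates 2 and 3 alone, SMG1 RNA rose by a log2 value of 0.32 between untreated cells and 6 h (edgeR, adjusted p = 0.0318) and by 0.47 between 2 h and 6 h (adjusted p = 0.0043), and SMG5 RNA by 0.39 between 2 h and 6 h (adjusted p = 0.0175). Among all 30895 genes of that fit, 17.7% (10.4% higher) and 23.5% (12.6% higher) passed in these comparisons, against 1 and 2 of the 9 factors. At 2 h, 0 of 9 passed in that fit against 4.3% (2.62% higher). Over 13 alternatives the adjusted p of SMG1 ran from 0.0119 to 0.614 at 6 h and from 0.000265 to 1 between 6 h and 2 h, and that of SMG5 from 0.00235 to 1 between 6 h and 2 h. The SMG1 log2 fold change between 6 h and 2 h stayed between 0.35 and 0.55 over these alternatives, and that of SMG5 between 0.23 and 0.49.

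A fit added after the data were seen left out untreated replicate 1 and took the replicate number as a block. In it SMG1 (0.31, edgeR adjusted p = 0.0119), UPF3B (0.36, adjusted p = 0.0453) and SMG9 (0.28, adjusted p = 0.0494) rose and SMG8 (-0.29, adjusted p = 0.0435) fell at 6 h, 4 of 9 against 23.9% of all 31144 genes. Between 6 h and 2 h it called SMG1 (0.46, adjusted p = 0.000265) and SMG5 (0.34, adjusted p = 0.00235), 2 of 9 against 33.1% (15.9% higher), and at 2 h it called 0 of 9 against 2.54% (1.61% higher). Over the 13 alternatives of the 6 h comparison the adjusted p of UPF3B ran from 0.0453 to 0.561, that of SMG9 from 0.0494 to 0.506 and that of SMG8 from 0.0435 to 0.999. At 6 h the 3 higher calls stood beside 12.1% of genes called higher, and the 1 lower call beside 11.8% called lower.

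Between 6 h and 2 h the 2 calls of each fit were both higher. They stood beside 12.6% and 15.9% of genes called higher, and 23.5% and 33.1% called in either direction. Neither count exceeded the share called in either direction, and the difference from the share called higher was not tested. Windows of 300 bases, 250 of them before the start, were taken around the starts of the factors. They were searched on both strands for 3 elements bound by ER stress transcription factors. These were the ER stress element (CCAAT and CCACG separated by 9 bases of any kind), the element TGACGTGG and the core TGATGNAA of the element bound by ATF4. They occur in 0.0769%, 0.729% and 3.62% of 35116 RefSeq promoter windows of 300 bases on GRCh38.p14. The RefSeq table held 15 windows for 8 of the factors, and 0 of the 15 held any of the 3 elements, including the 1 window of SMG1 and both windows of SMG5. The 250 bases before the start of SMG1 (chr16:18926409-18926658, minus strand) are shown, as those of the factor called in both fits at 6 h, beside those of HSPA5 (chr9:125241344-125241593, minus strand), the gene of the ER chaperone BiP, in which capitals mark the ER stress element.
SMG1: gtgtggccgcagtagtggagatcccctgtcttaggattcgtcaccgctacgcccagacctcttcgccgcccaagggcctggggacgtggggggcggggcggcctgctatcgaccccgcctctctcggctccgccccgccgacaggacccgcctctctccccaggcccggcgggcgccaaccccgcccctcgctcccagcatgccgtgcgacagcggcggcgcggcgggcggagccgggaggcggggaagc
HSPA5: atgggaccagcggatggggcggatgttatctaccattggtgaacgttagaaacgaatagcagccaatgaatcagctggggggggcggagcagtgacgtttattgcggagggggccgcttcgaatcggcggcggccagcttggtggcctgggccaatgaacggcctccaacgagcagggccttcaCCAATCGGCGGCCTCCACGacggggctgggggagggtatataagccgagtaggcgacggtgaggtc
A match or its absence describes these letters only, and GC content was 75.6% in the SMG1 stretch and 62.0% in that of HSPA5. SMG1 has 7 annotated pseudogenes, SMG1P1 to SMG1P7, all on chromosome 16, so its reads may be shared. None of the 7 was called in RNA-Seq after 6 h of tunicamycin, with a median of 0.28, and SMG1P1 (0.52 ± 0.284) and SMG1P7 (0.28 ± 0.19) had the smallest p.

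In Ribo-Seq, 0 of 9 factors passed the test after 6 h of tunicamycin, where 0.84% of 19411 genes did. DESeq2 called none of the factors, against 3.53% of genes. The median was 0.04 against -0.07 over all genes. SMG9 was the 1 factor with an unadjusted p under 0.05, where 12.1% of genes had one. It was also the 1 factor with all 6 h footprint levels above all untreated ones, where 9.54% of genes had such an order. The reverse order was seen in 0 of 9, against 11.1%. SMG9 overlapped too on library size alone, where 0 of 9 lay wholly above, against 7.89% of genes. Its footprints were at 28.4, 61.1 and 55.9 CPM in untreated cells, 64.4, 56.2 and 57.1 CPM after 2 h and 90.0, 84.9 and 68.2 CPM after 6 h, so every 6 h library was also above every 2 h library, as in RNA-Seq. The log2 fold change of SMG9 footprints was 0.74 ± 0.293 (95% interval 0.11 to 1.38; adjusted p = 0.331), with log2 ratios of 1.67, 0.47 and 0.29 between libraries of the same number. With replicates 2 and 3 alone it was 0.43 (edgeR adjusted p = 0.373; 0.177 to 0.628 over its alternatives).

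SMG1 footprints were at 174, 164 and 171 CPM in untreated cells, 117, 156 and 114 CPM at 2 h and 149.9, 244 and 205 CPM at 6 h. The 2 h libraries all lay below the untreated ones, where 3.76% of genes had that order; 0 of 9 factors had the reverse order (2.58%), and 0% of genes passed the test (619 had an unadjusted p under 0.05, and DESeq2 called 3). The log2 fold change was -0.40 ± 0.256 at 2 h (adjusted p = 1) and 0.63 ± 0.257 from 2 h to 6 h (adjusted p = 0.417, unadjusted p = 0.0296), with log2 ratios of 0.36, 0.65 and 0.85 between libraries of the same number. SMG5 footprints were at 156, 338 and 276 CPM in untreated cells, 241, 329.6 and 295 CPM at 2 h and 283, 437 and 335 CPM at 6 h, overlapping, with 0.45 ± 0.319 at 6 h (adjusted p = 0.623). From 2 h to 6 h, 0 of 9 factors passed against 0.752% of genes, and SMG9 alone had levels that did not overlap, against 9.1% of genes higher and 8.53% lower. It overlapped as well on library size alone (0 of 9, against 7.17% of genes higher).

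The other factors overlapped between groups in Ribo-Seq. UPF1 was at 105 to 119 CPM in untreated cells and 78.7 to 121 CPM at 6 h (-0.11 ± 0.28), and UPF2 at 27.1 to 45.0 and 24.4 to 30.0 CPM (-0.28 ± 0.342). UPF3B was at 7.34 to 16.3 and 13.7 to 23.7 CPM (0.54 ± 0.382), SMG6 at 25.5 to 32.9 and 28.0 to 31.3 CPM (0.04 ± 0.274), and SMG8 at 22.9 to 27.2 and 24.2 to 27.9 CPM (0.04 ± 0.249). UPF3A had the fewest footprint reads, 40 to 192 counts a library, and lay at 6.62 to 12.2 and 7.81 to 9.89 CPM (-0.21 ± 0.478; 95% interval -1.24 to 0.83). At that depth a 2-fold lower footprint level of UPF3A lies within the interval.

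**Figure D3:**
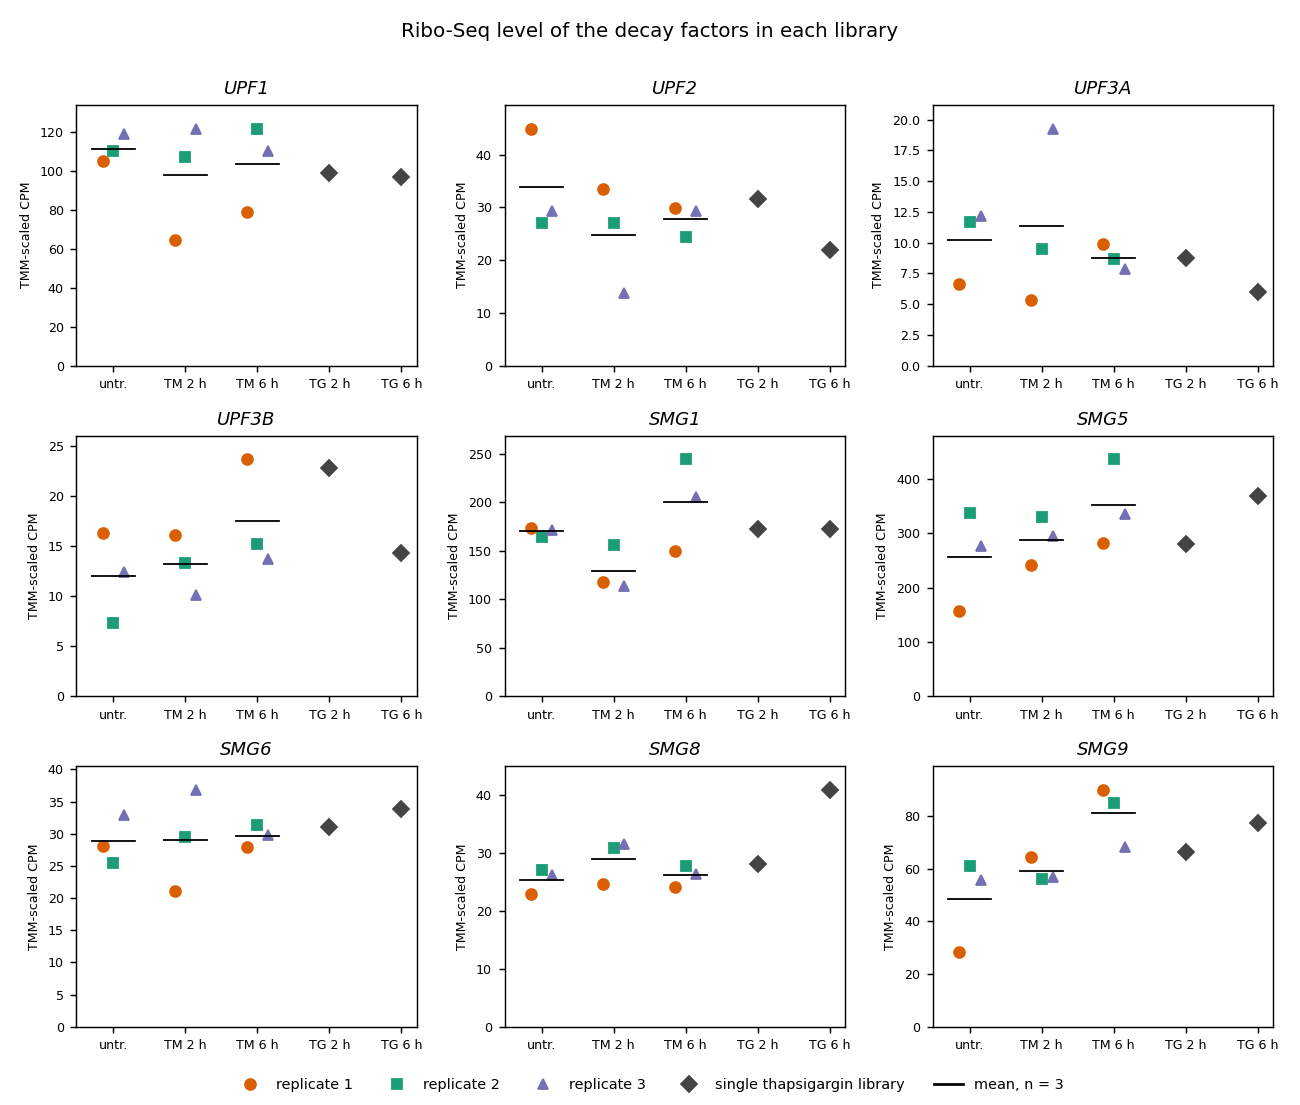
Ribo-Seq level of each factor in each library (vertical axis, TMM-scaled CPM from 0; horizontal axis, groups as in the RNA-Seq plot; lines are means of 3). SMG9 at 6 h of tunicamycin, 68.2 to 90.0 CPM, lies above the untreated libraries at 28.4 to 61.1 CPM on this scale but not on library size alone, while UPF3A spreads from 5.37 to 19.3 CPM within the 2 h group.

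Translational efficiency compares how footprints and RNA of a gene changed, and its test was the interaction of assay and group in 39928 genes. None of the 9 factors passed at 2 h, at 6 h or between them, and neither did any other gene (0% in each; 2775, 2998 and 1409 genes had an unadjusted p under 0.05, and DESeq2 called 24, 27 and 15). At 6 h the factors ran from -0.35 ± 0.492 for UPF3A to 0.26 ± 0.356 for SMG9, and 0 of 9 had an unadjusted p under 0.05. SMG1 stood at -0.15 ± 0.327 and SMG5 at 0.00 ± 0.349. The 95% intervals were wide: for SMG5 the interval ran from -0.73 to 0.74.

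**Figure D4:**
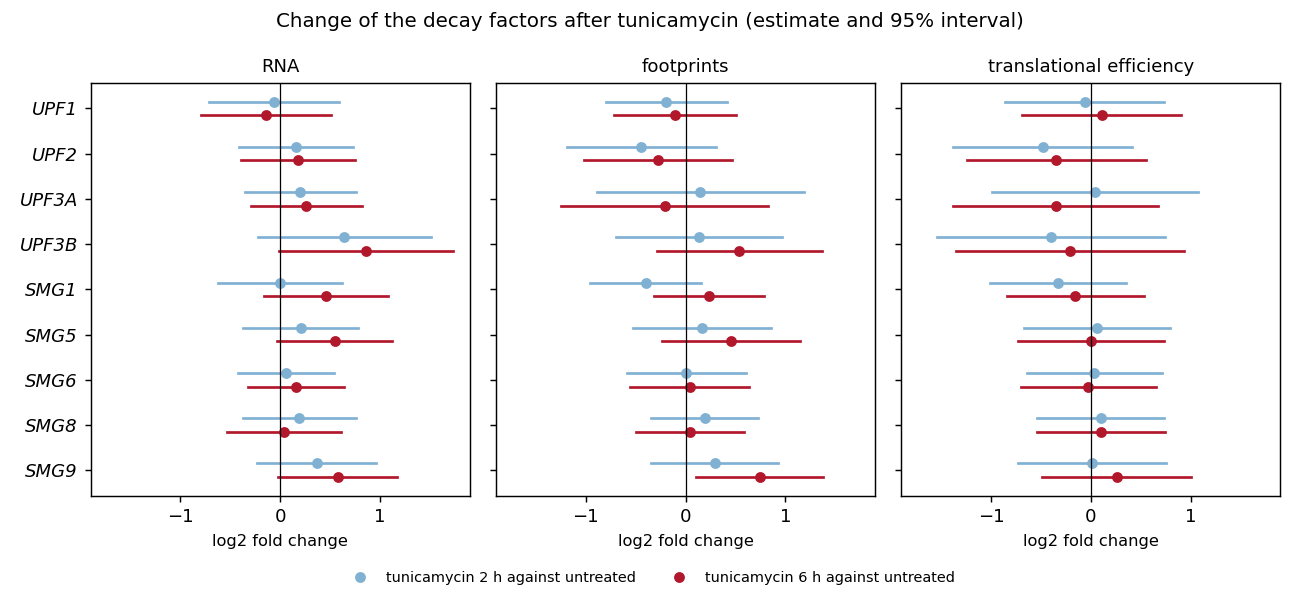
Log2 fold change (horizontal axis) with 95% interval for each factor (vertical axis) after 2 h and 6 h of tunicamycin against untreated cells, in RNA, footprints and translational efficiency. The intervals include 0 for all but SMG9 footprints at 6 h (0.11 to 1.38), which did not pass after adjustment.

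In untreated cells the footprint level relative to the RNA level differed among the factors. Libraries of both assays were paired by replicate number and no lengths were used, so the order of the factors is a description only. The log2 ratio of the 2 CPM values was -1.35 ± 0.193 (SD, n = 3) for UPF3A, which placed it at the 6.55th percentile of 18500 genes, and -0.81 ± 0.595 for SMG1, at the 15th percentile. SMG5 was highest of the 9, at 0.50 ± 0.137 and the 76th percentile, and the median of all genes was -0.03. For SMG1 the value was -0.13 in replicate 1 and -1.16 and -1.15 in replicates 2 and 3, so replicate 1 lay apart from replicates 2 and 3. That value depended on scaling. On library size alone SMG1 in untreated replicate 1 was at 276 CPM in RNA and 173 CPM in footprints, in place of 189.7 and 174 CPM. Reads of pseudogenes and overlapping genes may enter either assay, and their part in these ratios was not tested.

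Thapsigargin had 1 library for each time and assay, so its tests borrow the spread of the other groups and have no replicate check. In RNA-Seq 0 of 9 factors passed at 2 h, where 0.0997% of genes did, and 0 of 9 at 6 h, where 1.79% did. UPF3B was at 30.0 CPM after 2 h and 28.0 CPM after 6 h (log2 fold changes of 1.59 ± 0.514 and 1.49 ± 0.515; adjusted p = 0.367 and 0.180), and UPF2 at 70.2 and 55.3 CPM. UPF1 was at 89.2 CPM and then 63.5 CPM, its lowest level of all libraries (-0.99 ± 0.443 at 6 h; adjusted p = 0.292), and SMG8 at 40.9 and 50.2 CPM.

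At 2 h the thapsigargin RNA level lay above all 3 untreated levels for 8 of 9 factors, all but UPF1, where 25.6% of genes did, and below them for 0 of 9, where 24.9% did. At 6 h it did for UPF2, UPF3A, UPF3B, SMG5 and SMG8 (5 of 9 against 25.2%), while UPF1 lay below (1 of 9 against 28.6%). On library size alone UPF2, UPF3B, SMG1 and SMG8 lay above at 2 h (4 of 9 against 15.4%) and UPF1 below (1 of 9 against 34.1%). At 6 h UPF3B and SMG8 then lay above (2 of 9 against 15.6%) and UPF1 and SMG6 below (2 of 9 against 38.7%). Beside tunicamycin replicate 1, the thapsigargin level was near for UPF3B at 6 h (28.0 and 27.0 CPM) and apart for SMG1 at 2 h (441 and 267 CPM) and SMG9 at 6 h (50.0 and 78.2 CPM). The lone library and the group cannot be told apart, and without untreated replicate 1 the 2 h median of the factors was 0.096 in place of 0.33. With that library left out and the replicate number as a block, UPF1 fell at 6 h (-0.63, edgeR adjusted p = 0.00408; range over 9 alternatives 0.00408 to 0.567; 13.1% of genes called lower) and SMG1 rose at 2 h (0.49, adjusted p = 0.0213; range 0.0213 to 0.767; 7.56% called higher). In that fit the replicate 1 offset came from the tunicamycin libraries alone.

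In Ribo-Seq 0 of 9 passed after thapsigargin at 2 h (0.0824% of genes) or 6 h (0.974%). SMG8 and SMG9 lay above all untreated footprint levels at both times, with SMG8 at 28.1 and 41.0 CPM and SMG9 at 66.5 and 77.5 CPM. UPF1 lay below all of them at both times on the TMM scale, at 98.8 and 97.0 CPM. Including these, 3 of 9 were above at 2 h (24.2% of genes) and 4 of 9 at 6 h (26.9%), and 1 of 9 below at 2 h (26.3%) and 3 of 9 at 6 h (33.9%). On library size alone 5 of 9 were above at 2 h (31.6% of genes) and 0 of 9, UPF1 included, below (20.3%). At 6 h 5 of 9 were then above (29.3%), SMG1 among them, and 3 of 9 below (31.4%). Translational efficiency was called for 0 of 9 at either time, against 0.0025% and 0% of genes, and the 6 h values ran from -1.13 ± 0.776 for UPF3B to 0.90 ± 0.54 for UPF1.

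The lists of partner genes gave 0 calls in RNA-Seq after 6 h of tunicamycin, where over all genes 1.5% were called, 17.4% had an unadjusted p under 0.05 and the median was -0.27. Without untreated replicate 1 the median over all genes was -0.01, and the list medians were not computed without that library. Of 12 accessory factors 0 passed (4 with an unadjusted p under 0.05; median 0.31). SEC13, a coat protein of ER vesicles, had the smallest p (0.89 ± 0.276, adjusted p = 0.163), followed by NBAS, which acts in traffic to the ER and in NMD of ER-bound mRNAs (0.61 ± 0.22, adjusted p = 0.215). Of 12 exon junction complex genes 0 passed (3 unadjusted; median 0.34), with the core gene MAGOH at 0.92 ± 0.35 and its near copy MAGOHB at 0.89 ± 0.368.

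Of 20 genes of translation release, decapping and deadenylation 0 passed (4 unadjusted; median 0.26), led by the release factor gene ETF1 (0.77 ± 0.319) and the deadenylase scaffold gene CNOT1 (0.51 ± 0.214). Of 11 genes of ribosome rescue and the exosome 0 passed (4 unadjusted; median 0.58), led by PELO, which recognises stalled ribosomes (1.06 ± 0.312), and the exosome nuclease gene DIS3 (0.75 ± 0.243). After 6 h of thapsigargin, with 1 library and no replicate check, DIS3 RNA had a log2 fold change of 1.50 ± 0.319. DIS3 was picked from its list after this value was seen, and the other genes of the list are not given for thapsigargin.

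Among 20 RNAs reported as NMD substrates 3 rose at 6 h and 0 fell, where 1.23% of all genes rose and 0.275% fell. Their median was 0.74 against -0.27 over all genes. Without untreated replicate 1 the latter was -0.01, and the former was not computed. ATF4, a transcription factor mRNA with upstream reading frames, rose from 272 ± 98.8 to 842 ± 96.4 CPM (1.63 ± 0.299, adjusted p = 0.0256), ERN1, the ER stress sensor IRE1, from 21.8 ± 4.45 to 75.4 ± 20.9 CPM (1.79 ± 0.367, adjusted p = 0.0419), and TBL2 from 45.9 ± 8.08 to 93.5 ± 10.8 CPM (1.03 ± 0.213, adjusted p = 0.0431; SD, n = 3 for each level). ATF4 and ERN1 are also among the 6 genes taken as a reference for the ER stress response, and all 6 rose in the same comparison. Beside ATF4 and ERN1 these were HERPUD1, an ER degradation factor (4.68 ± 0.254), EIF2AK3, the sensor kinase PERK (2.27 ± 0.242), the transcription factor gene DDIT3 (4.85 ± 0.515) and HSPA5 (3.67 ± 0.518). In Ribo-Seq 0 of the 20 passed at 6 h (10 with an unadjusted p under 0.05, against 12.1% of all genes; median 0.69 against -0.07), with ATF4 at 1.41 ± 0.299 (adjusted p = 0.0534). After 6 h of thapsigargin 2 of 20 rose in RNA-Seq, where 1.49% of all genes did, ATF3 (4.19 ± 0.827, adjusted p = 0.0343) and ATF4 (1.83 ± 0.38, adjusted p = 0.0424). The 20 reported substrates were not sorted by whether they also belong to the ER stress response. The part of that response in their median was not tested. Whether these RNAs were decayed more slowly was not measured.

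Over the 11 RNA-Seq libraries UPF2 and UPF3B varied together (Pearson r of log2 CPM 0.934), as did SMG1 and SMG6 (0.922) and SMG5 and SMG9 (0.915), while UPF1 ran against UPF2 (-0.61) and UPF3B (-0.638). In Ribo-Seq SMG5 and SMG9 had 0.796, while UPF2 and UPF3B had 0.441 and SMG1 and SMG6 0.225. The genes most like the mean of the 9 factors were ZFP91, PCBD2, PSMC5 and NSRP1 in RNA-Seq, among 20633 genes (r of 0.990, 0.984, 0.976 and 0.972), with 1 entry without a symbol. In Ribo-Seq, among 11568 genes, they were HAPSTR1, PYROXD1, PPFIA1, SPRY2 and CLIP1 (0.884 to 0.895). These correlations describe libraries that share treatments and replicate numbers, and in RNA-Seq the mean of the factors was lowest in untreated replicate 1 (-0.62 on the centred log2 scale) against -0.17 to 0.25 in the others.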

How the data were processed

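RNA-Seq and Ribo-Seq counts of 22 LN308 libraries, 11 of each assay, were used as deposited: whole numbers of reads per gene entry in each library, for 58278 Ensembl entries, of which 57437 had a symbol in the reference table. Per the submitters' processing notes, STAR 2.5.4b, HTSeq, DESeq2 and build GRCh38 were used. No source used here gives the role of each tool, the annotation, the strand setting or the handling of shared reads. Per the labels' protocols, Ribo-Seq took 27 to 33 nt fragments of 80S monosomes after cycloheximide at 0.1 mg/ml for 5 min.

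The labels gave each library its group and number. Genes were kept by filterByExpr (minimum count 10), scaled by TMM and tested with edgeR 4.0.16 (R 4.3.3; glmQLFit, robust, and glmQLFTest) over all groups of an assay, and for translational efficiency over all 22 libraries; p-values were adjusted by Benjamini-Hochberg over 41130, 19411 and 39928 genes, and called under 0.05. The coefficient of variation between replicates was 0.506, 0.546 and 0.551. Alternatives were DESeq2 1.42.0, library size alone, no filter, the compared groups alone, a replicate block, replicates 2 and 3 alone and leaving out each library. Correlations used log2 CPM with a pseudocount of 0.5; most-like genes needed a mean of at least 50 counts. Fits were tested on simulated data with the same dispersion for every gene, below that of these data, and without a library that stood apart. That test therefore does not show how the fits behave with untreated replicate 1. The order of libraries was compared on both scales. No 2 libraries of a group agreed within sampling noise (chi-square per degree of freedom 28.7 to 636 within groups).

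Same-numbered libraries deviated together in RNA-Seq at 6 h and 2 h, with correlations of deviations from group means of 0.699 to 0.84. In all Ribo-Seq comparisons these were 0.138 to 0.473. In RNA-Seq against untreated cells they were 0.258, 0.0733 and 0.444 at 2 h in replicates 1, 2 and 3, and 0.339, 0.211 and 0.444 at 6 h. Replicates 1 and 3 correlated best with their own number at both times, and replicate 2 at neither. This comes from the data, not the labels. Thapsigargin Ribo-Seq labels carry no number and stayed out of block fits.

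Members and lists (12 accessory factors, 12 exon junction complex genes, 20 release, decapping and deadenylation genes, 11 rescue and exosome genes, 20 reported substrates and 7 SMG1 pseudogenes) were chosen with earlier results of these data known. All factors are named; from a list, those called after tunicamycin (up to 4 a comparison), with fewer than 2 called the 2 smallest p at 6 h in RNA-Seq, and HSPA5, DDIT3, ERN1 and ATF4; and the 5 genes most like the mean of the factors. The calls after thapsigargin and the pairs in the correlations were chosen after their values were seen. No transcript lengths were used, so levels are not compared between genes. Positions and promoters are from RefSeq, GRCh38.p14.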

Additional observations from a re-analysis of the deposited data

How the results depend on the processing

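No factor was called under DESeq2, library size alone, no filter, the compared groups alone, the replicate block by itself or with any 1 library left out, nor in translational efficiency over the genes kept in both assays (added after seeing the data). Calls appeared in RNA-Seq with replicates 2 and 3 alone (1 at 6 h, 2 between 6 h and 2 h) and, in a fit chosen after seeing the data, with the replicate block and without untreated replicate 1 (4, 2, and 1 and 1 for thapsigargin at 2 h and 6 h); SMG8 turned there from 0.04 to -0.29 at 6 h. The cause was not tested. Of 1674 values under alternatives 244 had another sign than the main value, 1 of them with a call. The counts of factors without overlap between groups, recomputed on library size alone after seeing the data, went in RNA-Seq from 3 to 0 (6 h higher), 2 to 0 (6 h over 2 h), 8 to 4 and 5 to 2 (thapsigargin higher) and 0 to 1 and 1 to 2 (thapsigargin lower), and in Ribo-Seq from 1 to 0 (6 h higher, against untreated and against 2 h), 3 to 5 and 1 to 0 (thapsigargin 2 h, higher and lower) and 4 to 5 (thapsigargin 6 h, higher). On library size alone 24 of 90 levels moved by over 1 SD, or counting noise at n = 1.

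Medians moved by more than the spread between libraries in these cases. RNA-Seq: at 2 h of tunicamycin -0.12 with replicates 2 and 3 alone and -0.097 with the block and without untreated replicate 1; at 6 h -0.0076 on library size alone; after thapsigargin at 2 h 0.060 on library size alone, 0.096 to 0.49 leaving out 1 library (0.096 without untreated replicate 1) and -0.088 with the block and without that replicate, and at 6 h -0.017 on library size alone and -0.15 with the block and without that replicate. Ribo-Seq: 0.32 between 6 h and 2 h with replicates 2 and 3 alone, 0.29 after thapsigargin at 2 h on library size alone, and, leaving out 1 library, -0.16 to 0.20 at 2 h of tunicamycin and -0.0049 to 0.27 at 6 h of thapsigargin. Translational efficiency: 0.44 after thapsigargin at 6 h on library size alone, and, leaving out 1 library, -0.36 to 0.059 at 2 h of tunicamycin, -0.34 to 0.044 and -0.077 to 0.19 at 2 h and 6 h of thapsigargin.

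The replicate block left SMG1 at 0.47 (adjusted p = 0.374) between 6 h and 2 h and changed no call of a factor, while the count over all genes at 6 h in RNA-Seq went from 617 to 1624. At 2 h in RNA-Seq, where the correlations with the same-numbered untreated libraries were 0.258, 0.0733 and 0.444, the count went from 4 to 8. Replicate 2 did not correlate best with its own untreated number in RNA-Seq at 2 h or 6 h. The 6 h count was 2485 with DESeq2 (1391 higher and 1094 lower, against 504 and 113), 5477 with replicates 2 and 3 alone, 7439 with the block and without untreated replicate 1, and 187 to 963 with 1 library left out (963 without untreated replicate 1). In Ribo-Seq it was 163, 686 with DESeq2, 386 with the block, 745 without the filter, and 34 to 166 with 1 library left out. DESeq2 called more genes than edgeR elsewhere too: in RNA-Seq 68 against 4 at 2 h, 1583 against 305 between 6 h and 2 h (1121 with the block), and 770 against 41 and 3528 against 737 after thapsigargin (247 and 1437 with the block); in Ribo-Seq 526 against 146 between 6 h and 2 h (364 with the block), and 190 against 16 and 1046 against 189 after thapsigargin. With 1 library left out the RNA-Seq count was 23 to 223 between 6 h and 2 h (23 without replicate 3 of 2 h), 7 to 107 and 178 to 2411 after thapsigargin at 2 h and 6 h (107 and 2411 without untreated replicate 1, 7 and 178 without untreated replicate 2), and the Ribo-Seq count 30 to 162, 3 to 26 and 63 to 300. Depth limits UPF3A and UPF3B in Ribo-Seq, with as few as 40 and 42 counts in a library.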
